A study of Mus musculus with 6 samples.

Results

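The genes described here are 33 genes of sterol synthesis, uptake and efflux, taken by symbol from a list that was drawn up with earlier results of these data known; no value enters the rule itself. All 33 were present among the 24499 genes of the deposited count table, and all 33 passed the filter on low counts that left 13296 genes for testing. By role they were 8 genes of the mevalonate steps, 11 of the squalene and sterol steps, 5 genes of SREBP control and 9 genes of sterol handling and the LXR side. The libraries were polyA RNA-seq of in vitro germinal center B cells (iGCBs), with 3 biological replicates each of cKO and control, to compare Eif3e-deficient with control cells at day 3 of culture.

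The cKO group carried Eif3e fl/fl alleles with Cγ1Cre and the Rosa26-YFP LSL reporter. B cells make this Cre once they are stimulated and begin to express γ1 heavy chain sequence, so Eif3e is lost in those cells and not throughout the animal. The control group is labelled only as control, and its libraries are named cgWT. For its work on tissues the study names Cγ1Cre Rosa26-YFP LSL mice as controls, and YFP+ cells need both Cre and the reporter, but the genotype of the mice behind these control libraries is not given in the sources used here. Naïve B cells from the spleen were grown with 40LB feeder cells, BALB/c 3T3 fibroblasts that express CD40L and BAFF and had been irradiated with 120 Gy, and with 1 ng/ml IL-4. Cells of both groups were sorted as YFP+ before RNA was extracted. All mice were on the C57BL/6J background. The ages of the mice are not given in the sources used here.

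Cells make cholesterol from acetyl-CoA through mevalonate and isoprenoid intermediates, which are joined to squalene, closed to lanosterol and then trimmed to the final sterol. SREBP transcription factors switch on these enzymes when sterols are scarce, and SCAP and the INSIG proteins decide whether SREBP leaves the endoplasmic reticulum. LXR nuclear receptors act on the other side, switching on exporters such as ABCA1 and ABCG1 and the ubiquitin ligase MYLIP when sterols are plentiful. Activated B cells that divide need sterols for new membrane and isoprenoids for protein prenylation.

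Library totals ranged from 39079582 to 45504570 counts, so that 3 counts corresponded to 0.0661 to 0.0763 CPM (counts scaled to library size, after TMM). Eif3e, the targeted gene, averaged 158 ± 13.1 CPM over cKO and 406 ± 16.5 CPM over control libraries (SD, n = 3 each), with no overlap. B cell markers were present at summed levels of 3532 to 3604 CPM in cKO and 3313 to 3551 CPM in control. Of the 14 fibroblast markers, which feeder cells would carry, the summed level was 67.6 to 77.6 CPM in cKO and 48.3 to 106 CPM in control, 2 were higher and 1 lower in cKO, and Postn was at 0 in every library. The 5 myeloid markers summed to 12.1 to 13.6 CPM in cKO and 9.90 to 12.7 CPM in control, with 1 higher in cKO, and the 4 T cell markers summed to at most 0.355 CPM. Xist was high in cKO 2, control 1 and control 2, while Y chromosome genes were found in cKO 1, cKO 3 and control 3, so each group held libraries of both sexes. In bulk RNA, fewer cells of a type and less RNA per cell cannot be told apart.

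The stretches before the start sites of the genes are shown first, as a description. RefSeq promoter entries (GRCm38.p6) were found for 27 of the 33 genes, and Fdps, Fdft1, Sqle, Stard4, Npc1 and Abcg1 had no entry. The 250 bases before each start were searched on both strands for CCAAT, the letters that NF-Y binds, for the sterol regulatory element core TCACNCCAC, for the E-box CACGTG, and for the LXR repeat AGGTCA followed by AGGTCA after 4 bases. CCAAT was present before 23 of the 27 genes, beside 37.5% of the 27025 genes with an entry. It stood before 6 of 7 mevalonate genes, 9 of 9 squalene and sterol genes, 4 of 5 SREBP control genes and 4 of 6 handling genes. The SREBP core was present before 1 member, Hmgcs1, beside 1.22% of all genes. The E-box was present before 6 members (Abca1, Dhcr7, Hsd17b7, Insig1, Sc5d and Scap), beside 6.86% of all genes, and the LXR repeat before 0 members, beside 0.0148%. A gene with several starts was counted if any of its windows matched. The shares are over all genes with an entry, expressed or not. A match describes letters in a window and is not a bound site.

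Windows are given for Hmgcs1, Mvk, Mvd and Insig1, 4 of the genes that fell by over 1.5-fold, and for Acat2. They run 5′ to 3′ on the strand of the gene, with CCAAT (either strand) and the SREBP core in capitals. Acat2, a synthesis gene with no match, fell as well (log2 fold change -0.53). Of genes not shown, Nr1h2 held 0 CCAAT matches and stood at 62.2% of control, and Insig2, which was not called, had a window with 3. Whether matches go with the size of the fall was not tested. Hmgcs1 (chr13:119690101-119690350, plus strand) held 3 CCAAT matches and the SREBP core, whose last base lay 129 bases before the start. Mvk (chr5:114444019-114444268, plus strand) held 5 CCAAT matches. Mvd (chr8:122443423-122443672, minus strand) held 2, Insig1 (chr5:28071162-28071411, plus strand) held 1 and Acat2 (chr17:12960726-12960975, minus strand) held 0.
Hmgcs1: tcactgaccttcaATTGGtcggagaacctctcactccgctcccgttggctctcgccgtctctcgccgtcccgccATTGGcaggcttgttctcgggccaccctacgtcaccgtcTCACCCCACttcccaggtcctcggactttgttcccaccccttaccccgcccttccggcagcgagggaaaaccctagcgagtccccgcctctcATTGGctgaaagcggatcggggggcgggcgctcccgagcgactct
Mvk: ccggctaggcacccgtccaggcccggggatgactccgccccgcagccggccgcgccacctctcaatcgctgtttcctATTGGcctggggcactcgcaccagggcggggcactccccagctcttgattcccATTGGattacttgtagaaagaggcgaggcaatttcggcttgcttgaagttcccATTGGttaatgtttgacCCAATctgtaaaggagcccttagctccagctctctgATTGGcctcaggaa
Mvd: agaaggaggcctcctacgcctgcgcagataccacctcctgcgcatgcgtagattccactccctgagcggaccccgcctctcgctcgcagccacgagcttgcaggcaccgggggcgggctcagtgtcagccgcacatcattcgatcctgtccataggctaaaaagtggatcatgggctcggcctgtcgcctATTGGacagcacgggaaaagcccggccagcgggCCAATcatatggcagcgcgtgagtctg
Insig1: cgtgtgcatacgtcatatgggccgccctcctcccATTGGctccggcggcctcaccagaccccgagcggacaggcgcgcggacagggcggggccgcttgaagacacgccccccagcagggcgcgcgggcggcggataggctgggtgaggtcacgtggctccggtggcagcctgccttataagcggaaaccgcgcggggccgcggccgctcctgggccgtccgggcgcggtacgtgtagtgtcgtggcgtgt
Acat2: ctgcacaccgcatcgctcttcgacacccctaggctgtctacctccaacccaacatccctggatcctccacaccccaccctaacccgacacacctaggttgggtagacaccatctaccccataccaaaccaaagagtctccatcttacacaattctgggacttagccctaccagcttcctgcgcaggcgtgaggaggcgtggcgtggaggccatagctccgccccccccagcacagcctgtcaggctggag

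Most sterol genes had less message in cKO iGCBs. By edgeR's quasi-likelihood test with Benjamini-Hochberg adjustment over all genes tested, 29 of 33 fell at an adjusted p under 0.05 and 0 rose. Of all genes tested, 24.5% were called lower and 24.1% higher by the same rule. With a change of over 1.5-fold asked as well, 17 members fell and 0 rose, beside 10.6% of all genes lower and 10.4% higher. In 28 members the 3 cKO libraries did not overlap the 3 control libraries, all with cKO below, beside 58.7% of all genes without overlap in either direction. The median log2 fold change was -0.59 over the members and -0.004 over all genes tested. The 4 members that did not pass were Insig2, Scap, Npc1 and Abca1. For a single gene an exact permutation test of 3 libraries against 3 cannot give a p below 0.1, so the p values used here come from the model over all genes.

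**Figure D1:**
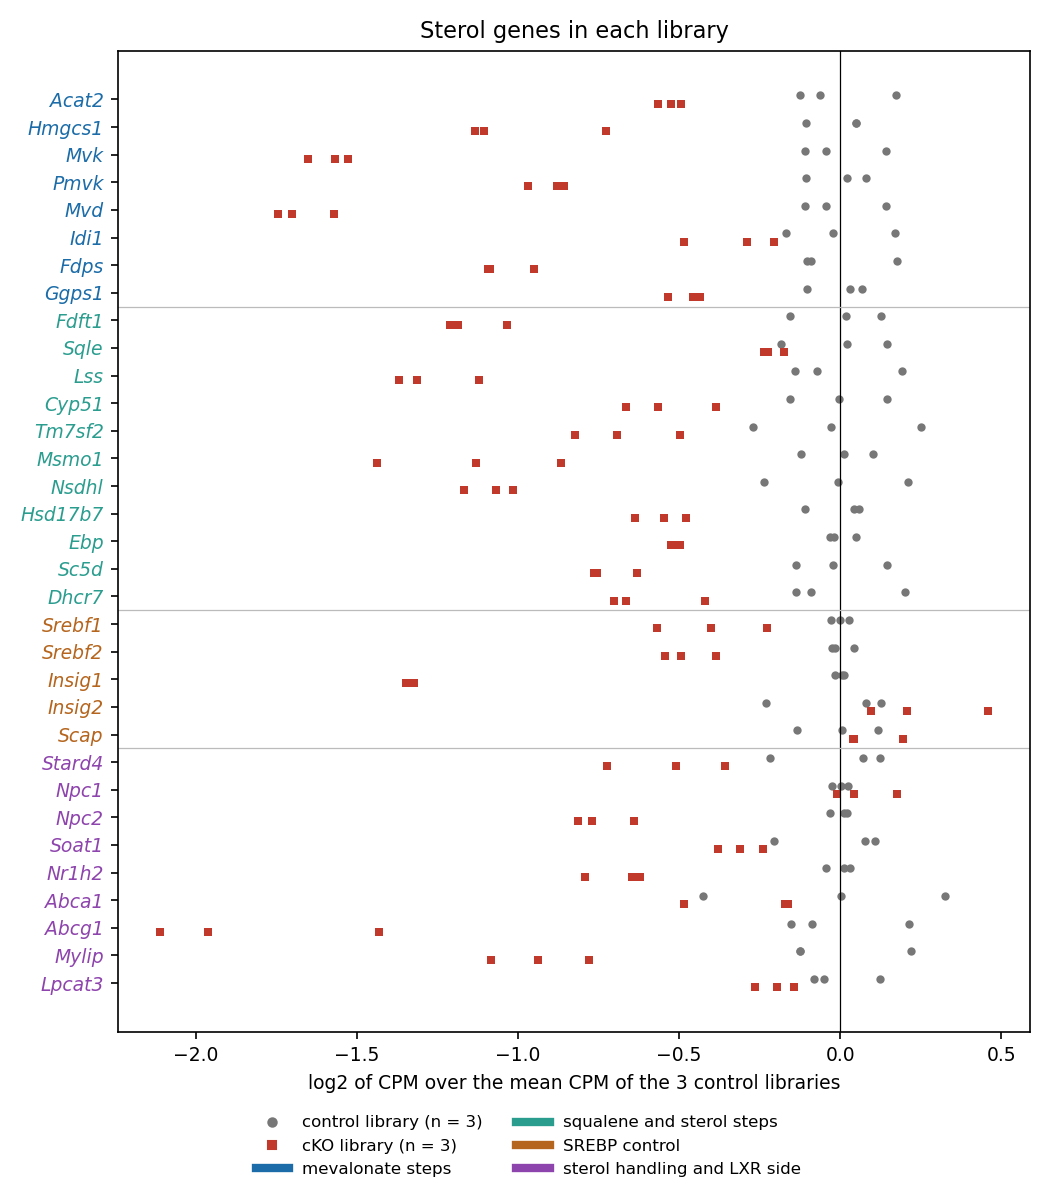
Each row is a sterol gene and each point a library, placed by the log2 of its CPM over the mean CPM of the 3 control libraries (grey circles, control; red squares, cKO). In 28 of 33 rows every red square lies left of every grey circle, and the exceptions are Sqle, Insig2, Scap, Npc1 and Abca1.

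The mevalonate steps held the largest falls among the enzymes. All 8 genes fell, 5 of them by over 1.5-fold, none overlapped between groups, and the median log2 fold change was -0.94. Mvd, the decarboxylase that yields isopentenyl diphosphate (chr8:122433601-122443422), was at 34.8, 30.8 and 31.8 CPM in cKO libraries 1, 2 and 3 and at 95.9, 100.2 and 114 CPM in control libraries 1, 2 and 3. It stood at 31.4% of control, a log2 fold change of -1.67 ± 0.08 (SE, adjusted p = 6.57e-07). Mvk, mevalonate kinase (chr5:114444269-114460591), was at 14.1, 12.9 and 13.7 CPM in cKO and 39.5, 37.7 and 44.9 CPM in control. The gap between the groups was again many times the spread within them, with a log2 fold change of -1.58 ± 0.10 (adjusted p = 1.85e-06). The 95% intervals of Mvk, -1.80 to -1.37, and Mvd, -1.85 to -1.49, overlapped. Pmvk, the phosphomevalonate kinase between them, was at 23.9, 22.1 and 23.5 CPM in cKO and 40.2, 43.9 and 45.8 CPM in control. Its fall to 53.5% of control was smaller, and its interval of -1.09 to -0.71 did not reach those of its neighbours.

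Hmgcs1, the cytosolic HMG-CoA synthase at the entry of the pathway (chr13:119690379-119708260), was at 125, 96.4 and 94.4 CPM in cKO and 215, 193 and 215 CPM in control. It stood at 50.8% of control, with cKO 1 the highest of the cKO libraries and still below every control (log2 fold change -0.98 ± 0.10, adjusted p = 3.39e-05). Fdps, which joins isoprene units to farnesyl diphosphate, was at 112, 102 and 101 CPM in cKO and 203, 201 and 244 CPM in control. It fell to 48.5% of control (adjusted p = 5.87e-06), close to Hmgcs1. The other 3 genes moved less. Acat2, the thiolase that makes acetoacetyl-CoA, had a log2 fold change of -0.53, and Ggps1, the synthase of geranylgeranyl diphosphate for protein prenylation, had -0.48. Idi1, the isomerase of isopentenyl diphosphate, ranged from 125 to 152 CPM in cKO and from 156 to 197 CPM in control, a log2 fold change of -0.32 (adjusted p = 0.0160). The call for Idi1 was lost without cKO 3 (-0.25, adjusted p = 0.0585) and without control 3 (-0.23, adjusted p = 0.0594).

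Genes of the squalene and sterol steps fell in all 11 cases, 7 of them by over 1.5-fold, with a median log2 fold change of -0.67. Lss, which closes the sterol rings to lanosterol (chr10:76531588-76557138), was at 57.1, 50.01 and 48.1 CPM in cKO and 118, 113 and 142 CPM in control. It had the largest change of the 11, to 41.6% of control (log2 fold change -1.26 ± 0.10, adjusted p = 5.15e-06). Fdft1, squalene synthase, the first step committed to sterols, was at 40.1, 35.5 and 36.1 CPM in cKO and 83.1, 73.7 and 89.6 CPM in control. It fell to 45.3% of control, with an interval that overlapped that of Lss. Sqle, the epoxidase that acts between them (chr15:59315077-59331192), did not follow. It was at 133, 127 and 128 CPM in cKO and 152, 132 and 165 CPM in control, and cKO 1 lay above control 2. It stood at 86.4% of control, with a log2 fold change of -0.21 and a 95% interval of -0.38 to -0.04 that lay apart from those of Fdft1 (-1.33 to -0.95) and Lss (-1.48 to -1.05). The adjusted p of Sqle was 0.0430. Without control 3 its log2 fold change was -0.13 (adjusted p = 0.181), and the call was also lost without cKO 1 (0.0721), cKO 2 (0.124), cKO 3 (0.0986) and control 1 (0.118). With all 6 libraries kept it was lost with DESeq2 size factors (0.0542) and with no filter on low counts (0.0635), which makes 7 of the 12 alternatives.

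Enzymes that remove methyl groups from lanosterol fell too. Msmo1, the methylsterol monooxygenase, was at 54.7, 45.6 and 36.8 CPM in cKO and 101, 91.8 and 107 CPM in control (log2 fold change -1.13 ± 0.12, adjusted p = 4.59e-05). Nsdhl, the dehydrogenase that follows it, was at 29.3, 28.3 and 26.4 CPM in cKO and 59.0, 50.3 and 68.7 CPM in control (log2 fold change -1.08 ± 0.11, adjusted p = 3.05e-05). Msmo1 stood at 45.8% and Nsdhl at 47.2% of control, and no library crossed. Hsd17b7, the reductase that completes the same demethylation, fell less, with a log2 fold change of -0.55, and Cyp51, the lanosterol demethylase that acts before them, had -0.53.

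Among the last steps, Sc5d, a sterol desaturase, was at 57.1, 52.0 and 52.3 CPM in cKO and 86.9, 80.4 and 97.6 CPM in control (log2 fold change -0.71 ± 0.08, adjusted p = 4.56e-05). Tm7sf2, a sterol reductase, was at 13.4, 11.7 and 10.7 CPM in cKO and 18.6, 15.7 and 22.5 CPM in control. Control 3 stood above the other controls for Tm7sf2, and without it the log2 fold change went from -0.67 to -0.52, under the 1.5-fold mark. Dhcr7, the reductase that gives cholesterol itself, was at 55.0, 45.2 and 46.4 CPM in cKO and 69.1, 66.9 and 84.6 CPM in control. Its log2 fold change of -0.59 lay just past the 1.5-fold mark and did not stay past it with DESeq2 or its size factors (-0.58 each), nor without control 3 (-0.48), cKO 2 (-0.54) or cKO 3 (-0.55). Its adjusted p stayed under 0.05 in each. Ebp, the sterol isomerase, lay in narrow ranges, 22.7 to 23.1 CPM in cKO and 32.0 to 33.8 CPM in control, and a log2 fold change of -0.51.

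**Figure D2:**
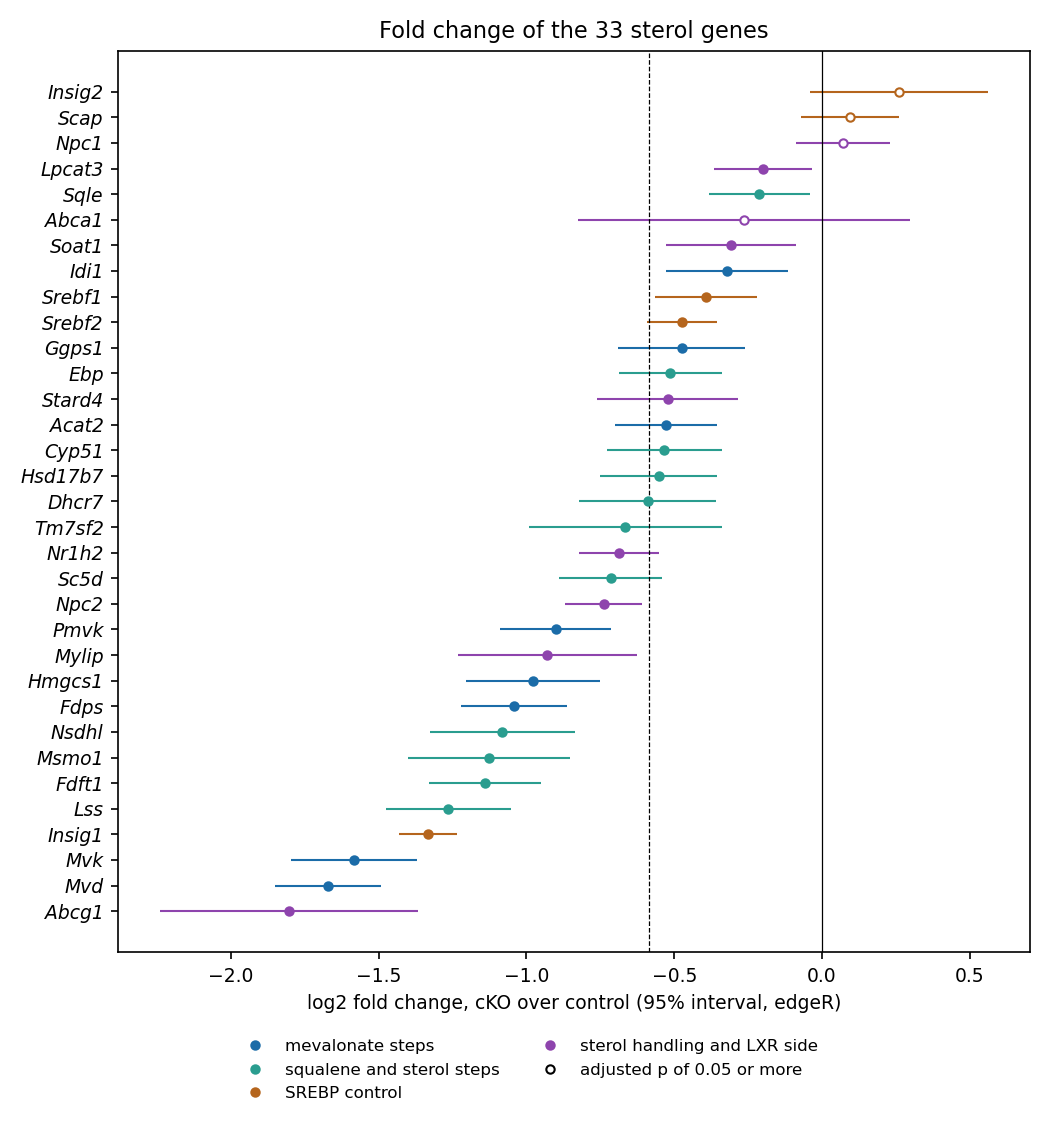
Points are log2 fold changes of cKO over control with 95% intervals from edgeR, ordered by size and coloured by role; open points have an adjusted p of 0.05 or more, and the dashed line marks 1.5-fold lower. The range runs from Abcg1 at -1.80 to Insig2 at 0.26, with Sqle and Idi1 the least changed of the enzymes.

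Of the 5 genes of SREBP control, 3 fell and 2 did not pass the test. Insig1, which holds the SCAP and SREBP complex in the endoplasmic reticulum and is itself a known SREBP target (chr5:28071363-28078662), was at 120, 121 and 122 CPM in cKO and 306, 302 and 307 CPM in control. It stood at 39.7% of control, with SDs of 1.08 CPM in cKO and 2.99 CPM in control (log2 fold change -1.33 ± 0.04, adjusted p = 2.31e-07). Insig2, the relative that does the same work, did not fall with it. Insig2 was at 18.6, 15.6 and 14.4 CPM in cKO and 14.7, 14.3 and 11.5 CPM in control, a log2 fold change of 0.26 with an interval of -0.04 to 0.56 (adjusted p = 0.137), and the groups overlapped.

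The SREBP genes themselves fell by less than most enzymes. Srebf2, which encodes SREBP2, the main activator of sterol synthesis (chr15:82147181-82205379), was at 530, 491 and 474 CPM in cKO and 684, 680 and 712 CPM in control. It stood at 72.0% of control (log2 fold change -0.47 ± 0.05, adjusted p = 5.16e-05). Srebf1, which encodes SREBP1, more tied to fatty acid synthesis, was at 154, 122 and 137 CPM in cKO and 177, 181 and 184 CPM in control. The cKO libraries of Srebf1 were spread over a wider range than the controls, none overlapped, and the log2 fold change was -0.39 ± 0.08 (adjusted p = 0.00199). Scap, the escort that carries SREBP to the Golgi, was at 98.9 to 110 CPM in cKO and 87.7 to 104 CPM in control, a log2 fold change of 0.09 with an interval of -0.07 to 0.26 (adjusted p = 0.323).

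**Figure D3:**
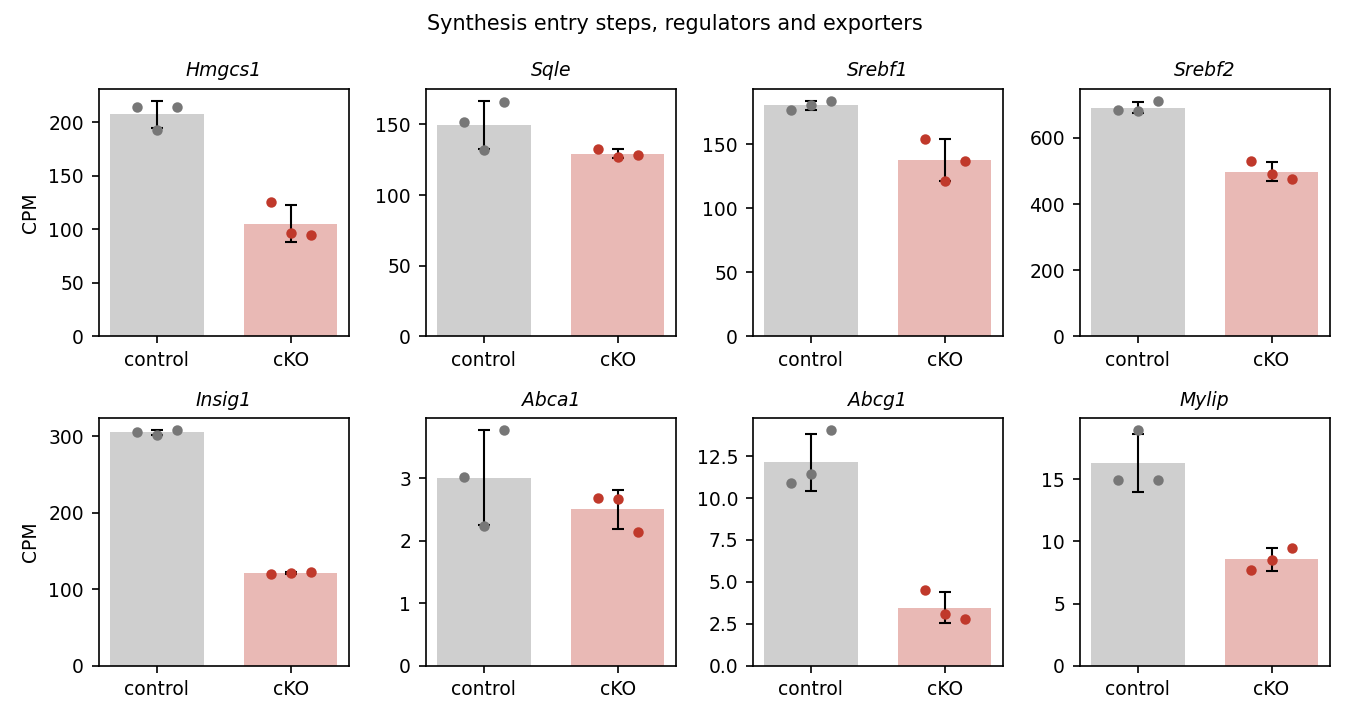
Bars are mean CPM from 0 with SD error bars and points are the 3 libraries of each group. Insig1 and Abcg1 show the widest gaps relative to control, Hmgcs1, Srebf2, Srebf1 and Mylip smaller ones without overlap, and Sqle and Abca1 overlap.

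Genes of sterol handling and the LXR side fell in 7 of 9 cases, 4 of them by over 1.5-fold, and 0 rose. The exporters differed from each other. Abcg1, which moves cholesterol to lipoprotein acceptors (chr17:31057675-31117988), was at 4.50, 3.11 and 2.81 CPM in cKO and 10.9, 11.4 and 14.1 CPM in control. It stood at 28.6% of control, the lowest share of the 33 genes (log2 fold change -1.80 ± 0.20, adjusted p = 4.56e-05), and rested on 119 to 204 counts in cKO libraries. Abca1, the exporter that loads lipid-poor apolipoproteins (chr4:53030787-53159895), was at 2.69, 2.67 and 2.15 CPM in cKO and 3.01, 2.24 and 3.76 CPM in control. The groups overlapped, and the log2 fold change of -0.27 had an interval of -0.83 to 0.30 (adjusted p = 0.418), and that interval held both no change and a fall of over 1.5-fold. The intervals of Abca1 and Abcg1 did not overlap. Within the libraries that carry Xist the log2 ratio of mean CPM of Abca1 was 0.02 and within those that carry Y genes it was -0.64, with a lone library on one side in each case and no test.

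Mylip, the LXR-induced ligase that removes lipoprotein receptors (chr13:45389742-45412022), was at 7.67, 8.49 and 9.48 CPM in cKO and 14.9, 19.0 and 14.9 CPM in control. It stood at 52.5% of control (log2 fold change -0.93 ± 0.14, adjusted p = 0.000310). Nr1h2, which encodes LXRβ, was at 58.7, 66.1 and 64.9 CPM in cKO and 103, 98.7 and 104 CPM in control. It stood at 62.2% of control (adjusted p = 1.30e-05), without overlap. Lpcat3, a phospholipid acyltransferase and a further LXR target, was lower by a log2 fold change of -0.20 (adjusted p = 0.0485), and the call was lost without any of the 6 libraries in turn, with adjusted p from 0.0518 (without control 1) to 0.157 (without control 3), and in 10 of the 12 alternatives in all, DESeq2 among them (0.0697).

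Npc2, the soluble carrier that lifts cholesterol out of lysosomes, was at 95.05, 86.8 and 84.2 CPM in cKO and 149, 150.2 and 145 CPM in control (log2 fold change -0.74 ± 0.06, adjusted p = 7.04e-06). Its membrane partner Npc1 did not pass the test, at 47.8 to 54.4 CPM in cKO and 47.3 to 49.0 CPM in control, a log2 fold change of 0.07 with an interval of -0.09 to 0.23 (adjusted p = 0.445). The intervals of the partners were far apart. Stard4, a cytosolic cholesterol carrier, had a log2 fold change of -0.52 (adjusted p = 0.00238). Soat1, which stores cholesterol as esters, had -0.31 (adjusted p = 0.0250), and its call was lost without cKO 2 (0.0813), cKO 3 (0.0693), control 1 (0.102) or control 3 (0.0806).

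Synthesis was then set against the other roles. The 19 enzymes had a median log2 fold change of -0.71, with 12 past 1.5-fold, beside -0.39 over the 5 SREBP control genes and -0.52 over the 9 handling and LXR genes. The mean log2 CPM over the 19 enzymes was 5.56, 5.42 and 5.38 in cKO and 6.27, 6.17 and 6.43 in control. Over the 9 handling and LXR genes it was 4.62, 4.53 and 4.47 in cKO and 5.13, 5.05 and 5.22 in control. The difference of cKO from control was -0.83 for the enzymes and -0.60 for the handling genes on this scale. The level of the enzymes over that of the handling genes was 0.94, 0.90 and 0.92 in cKO and 1.14, 1.12 and 1.21 in control, without overlap, a difference of -0.24. The mean of the 5 SREBP control genes was lower in cKO, with a difference of -0.37. Insig1 had the largest change of the 5 (log2 fold change -1.33), and Insig2 and Scap were not called. No test was made of these means, which share libraries and hold genes chosen as a list.

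**Figure D4:**
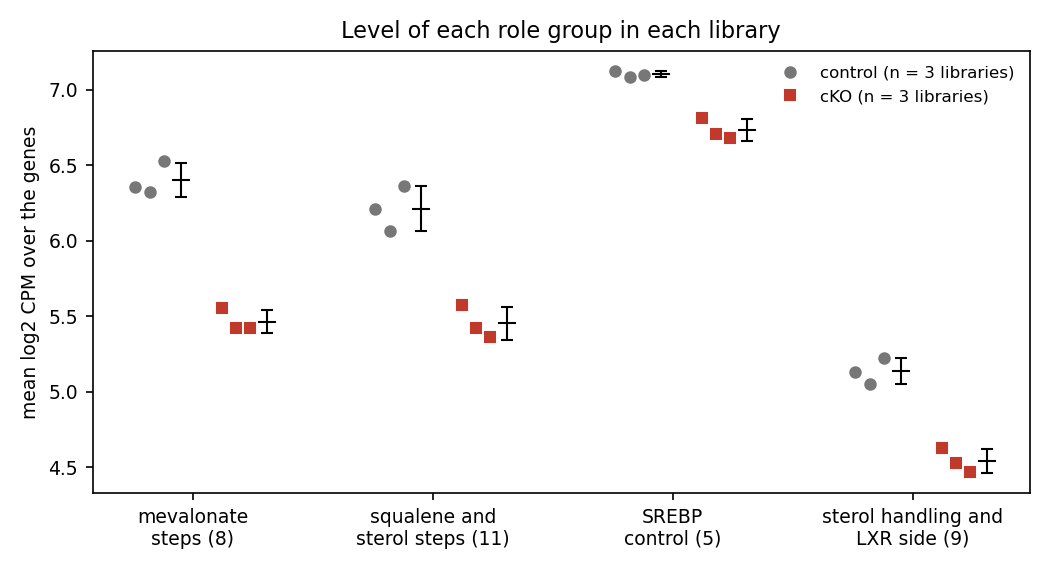
Points are libraries, placed by the mean log2 CPM over the genes of each role (number of genes in brackets), with the mean and SD of 3 libraries beside them. In each role the 3 cKO libraries lie below the 3 control libraries, with the widest gap in the mevalonate steps (5.42 to 5.55 against 6.32 to 6.53).

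Libraries of the same group also differed in the same order for most enzymes. Control 3 was the highest of the 3 controls for 18 of the 19 enzymes and for 27 of the 33 members, beside 35.1% of all genes tested (ties left out here and in the next counts). Control 2 was the lowest control for 16 enzymes and 24 members, beside 33.7% of all genes. Among cKO libraries, cKO 1 was the highest for 18 enzymes and 28 members, beside 32.3% of all genes, and cKO 3 the lowest for 11 enzymes and 18 members, beside 36.0%. Control 3 was the control with Y chromosome genes and with the lowest summed fibroblast markers, 48.3 CPM beside 106 and 102 CPM in controls 1 and 2. In cKO the pattern differed. Both cKO 1 and cKO 3 carried Y chromosome genes, and summed fibroblast markers were highest in cKO 1 (77.6 CPM) and lowest in cKO 3 (67.6 CPM). The part of sex and of feeder RNA in this order was not tested. Within the libraries that carry Xist, cKO 2 was below both controls for 19 of 19 enzymes (median log2 ratio -0.69), beside 43.5% of all genes tested. Within those that carry Y genes, both cKO libraries were below control 3 for 19 of 19 (median -0.90), beside 42.3% of all genes. Each of these comparisons has a lone library on one side and no test.

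Neighbouring genes of the pathway, taken from 3 further lists, went both ways. Of 41 listed genes 39 were tested, with 9 higher (23.1%), 10 lower (25.6%) and 20 not called, beside 24.1% higher and 24.5% lower over all genes tested. Of 16 genes of acetyl-CoA supply and isoprenoid branches 5 were higher and 4 lower, with a median log2 fold change of 0.05. Of 9 genes of SREBP processing and sterol sensing 3 were higher and 1 lower, with a median of -0.06. Of 14 genes of sterol traffic, esters and oxysterols 1 was higher and 5 (35.7%) were lower, with a median of -0.20, so that most of the called genes of this list fell. Among genes past both cutoffs, the precursor suppliers Acss2 and Slc25a1 fell. Acly, of the same list, fell less, to 87.0% of control (log2 fold change -0.20, adjusted p = 0.0191), and did not pass the 1.5-fold mark. Acss2, which makes acetyl-CoA from acetate, was at 10.1, 8.18 and 7.33 CPM in cKO and 15.1, 13.5 and 16.7 CPM in control (log2 fold change -0.82 ± 0.14, adjusted p = 0.000968). Slc25a1, the mitochondrial citrate exporter, was at 70.4, 65.1 and 56.0 CPM in cKO and 103, 102 and 109 CPM in control (log2 fold change -0.72 ± 0.08, adjusted p = 5.56e-05).

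Genes past both cutoffs in the other direction were Pdss2 and Pgrmc1. Pdss2, a subunit of the synthase of the ubiquinone side chain, a separate branch of the isoprenoid pathway, had a log2 fold change of 0.67 (adjusted p = 0.00553). Without control 1 it was 0.53, under the 1.5-fold mark. Pgrmc1, a haem protein of the endoplasmic reticulum, was at 79.8, 84.3 and 81.3 CPM in cKO and 51.8, 49.7 and 50.6 CPM in control (log2 fold change 0.69 ± 0.06, adjusted p = 8.17e-06). Gramd1a, which carries cholesterol from the plasma membrane to the endoplasmic reticulum, was at 118, 110 and 135 CPM in cKO and 219, 231 and 190.3 CPM in control (log2 fold change -0.82 ± 0.09, adjusted p = 4.63e-05). Soat2, a further esterifying enzyme, was barely expressed, at 26, 25 and 0 counts in cKO and 38, 63 and 134 counts in control. Its log2 fold change of -2.32 (adjusted p = 0.0436) lost the call without cKO 1 (0.0638), cKO 2 (0.0744), control 2 (0.0739) or control 3 (-1.68, 0.177), and also with DESeq2 (0.189), no filter on low counts (0.0585) or Xist level as a covariate (0.0509). Ch25h and Cyp7b1 had too few counts to be tested.

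**Figure D5:**
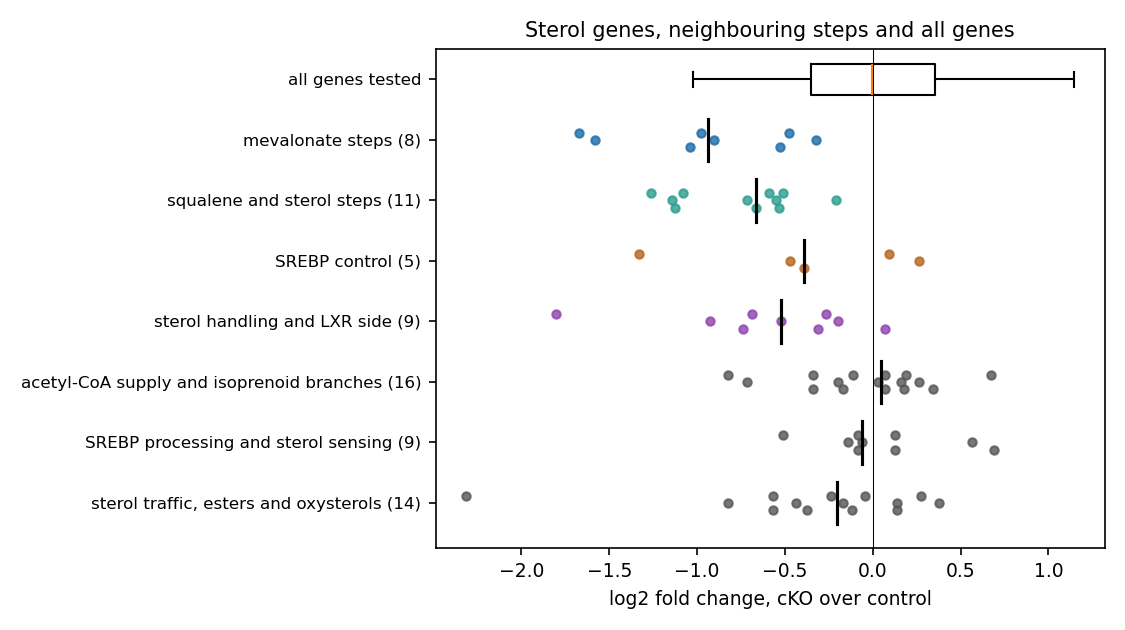
Points are log2 fold changes of single genes, black ticks are list medians and the box gives the quartiles of all 13296 genes tested with whiskers at the 5th and 95th percentiles; the number of genes tested is in brackets. The 4 sterol roles lie mostly left of 0, with medians from -0.94 to -0.39, and the 3 further lists spread to both sides, with medians from -0.20 to 0.05.

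Transcript use was tested where a member had at least 2 RefSeq transcripts with enough counts, which 8 of the 33 did. By edgeR's diffSpliceDGE 0 of the 8 were called at an adjusted p under 0.05 and 0 at an unadjusted p under 0.05, beside 1.35% of the 3032 genes tested that were called. The lowest adjusted p was that of Srebf1, 0.849. Its less abundant transcript NM_001313979 took 12.3%, 7.71% and 5.10% of the Srebf1 counts in cKO and 19.4%, 8.81% and 28.7% in control, a wide spread among controls. For Hmgcs1, NM_001291439 took 65.3%, 74.7% and 56.5% in cKO and 50.4%, 48.8% and 52.8% in control, without overlap, and the adjusted p was 1.00. The transcript counts are estimates by the authors' software, which shares reads between transcripts. On simulated data with the spread of real transcripts the test missed more changes, so a member without a call may still have changed its transcript use.

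The counting step may bear on a few genes. Whether reads were counted by strand is not given in the sources used here, and without strand, reads of overlapping genes on opposite strands cannot be told apart. In GENCODE M21, 18.3% of the exon bases of Fdft1 overlap Ctsb on the opposite strand, and 10.2% of those of Lpcat3 overlap Emg1. Scap (13.2%) and Hmgcs1 (12.1%) overlap other transcripts annotated on the opposite strand. On the same strand, 26.7% of the exon bases of Fdps overlap Gm43738, and 12.1% of those of Tm7sf2 overlap Vps51. Shares were under 10% for the other members with any overlap. Ctsb had a log2 fold change of -0.35, Emg1 0.30 and Vps51 -0.49. Acat2 has a near relative, Acat3, at -0.43 (adjusted p = 0.1001), and reads common to the relatives could be assigned to either. The values of Fdps, Fdft1, Scap, Hmgcs1, Tm7sf2, Lpcat3 and Acat2 carry the most of this uncertainty.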

How the data were processed

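The libraries were 6 polyA RNA-seq libraries of sorted YFP+ day 3 iGCBs, 3 per group, grouped by their labels. Reads were cleaned and mapped by the authors with HISAT2, to mm10 per the labels, and StringTie with its prepDE script gave their estimated counts for genes and for RefSeq transcripts. Versions are not given in the sources used here. The deposited values are expected counts, already whole and not normalized. StringTie estimates them from coverage, so they are not exact fragment numbers. The study calls them biological replicates, and whether each library came from a separate mouse is not given in the sources used here, so p values measure the spread between these libraries.

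The main fit used edgeR 4.0.16 in R 4.3.3. It kept genes by filterByExpr (minimum count 10), scaled by TMM and compared the groups with glmQLFit and glmQLFTest, with no covariate. P values were adjusted by Benjamini-Hochberg over all genes tested. The study's tool, DESeq2 (1.42.0), was an alternative. Genes were called at an adjusted p under 0.05, and by a stricter rule also at a fold over 1.5. Intervals are 95% intervals of the log2 fold change. Floors of 3 counts cover counting error only. Transcript use was tested with diffSpliceDGE, after 35707 of 36026 transcripts were paired with a gene by RefSeq. The fits were tested on simulated data. Gene locations are from GENCODE M21 (GRCm38), matched by symbol. Ufd1 was found under its older symbol.

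The 33 members and the lists beside them were chosen with earlier results of these data known, and the list does not hold every gene of the pathway. Values in every library are given for members past both cutoffs and for Hmgcs1, Sqle, Srebf1, Srebf2, Insig1, Abca1, Abcg1 and Mylip, and of the further lists the genes past both cutoffs are named. Alternatives were other scalings, DESeq2, no filter, a replicate block, Xist level as a covariate, each library left out, and a test against 1.5-fold. No sample column was left unused.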

Additional observations from a re-analysis of the deposited data

How the results depend on the processing

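Of the 29 sterol genes called lower, 25 kept the call in all 12 alternatives tried per gene, and 4 (Idi1, Sqle, Soat1 and Lpcat3) lost it in some. The other 4 members were called in none, and 0 of the 33 changed sign. Over the alternatives with all libraries, 27 to 29 members were called lower and 0 higher, and 25 to 28 with a library left out. With over 1.5-fold asked, 16 or 17 were lower, 15 to 20 with a library left out, and 13 when the test itself was against 1.5-fold. The median of the SREBP control genes was -0.45 with Xist level as a covariate and from -0.48 to -0.31 with a library left out. With a library left out the median of the squalene and sterol steps was from -0.79 to -0.53 and that of the handling genes from -0.63 to -0.43. Of the 19 further pathway genes called, 11 kept the call throughout. The 9 called higher became 5 without a filter on low counts, 5 with the replicate block and 4 to 7 with a library left out. The 2 higher by over 1.5-fold became 1 to 3 with a library left out. Pairing by replicate number was checked by correlating deviations from the group means. Same-numbered libraries gave 0.009, 0.078 and 0.119, and differently numbered ones gave -0.148 to 0.086. With 3 libraries per group this check cannot decide whether the numbers pair the libraries. With the replicate block 28 members were called lower in place of 29, Lpcat3 being lost, and Soat2 among the further genes lost its call (adjusted p = 0.0990). Why calls moved was not tested.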

Other observations

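A further sterol enzyme outside the 33 genes, Lbr, was noticed after its values were seen. Lbr encodes an inner nuclear membrane protein that also acts as a sterol reductase, the same kind of step as Tm7sf2. It was at 266, 242 and 256 CPM in cKO and 388, 381 and 365 CPM in control, without overlap, a log2 fold change of -0.57 (edgeR's quasi-likelihood test, adjusted p = 1.74e-05). Erlin1, a protein of the endoplasmic reticulum that takes part in removing sterol-regulated proteins, moved the other way and was also noticed after its values were seen. It was at 46.1, 44.9 and 44.7 CPM in cKO and 30.3, 32.3 and 29.2 CPM in control, a log2 fold change of 0.56 (adjusted p = 0.000175). Its relative Erlin2 did not pass the test, with a log2 fold change of -0.08 (adjusted p = 0.462).

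Isoprenoid branches away from sterols were spread to both sides. Nus1 and Dhdds, which together form the synthase of dolichol precursors for protein glycosylation, had log2 fold changes of 0.26 (adjusted p = 0.00309) and 0.18 (adjusted p = 0.0367), and were named after their values were seen. The call for Dhdds was lost in 8 of the 12 alternatives. Of the 5 prenyltransferase subunits on the list, Pggt1b was lower (-0.34, adjusted p = 0.0175) and Rabggtb higher (0.19, adjusted p = 0.0459). Fnta, Fntb and Rabggta did not pass the test, at 0.07, 0.03 and -0.34. The call for Pggt1b was lost without cKO 1 (0.0708) and control 2 (0.0576), and that for Rabggtb in 7 of the 12 alternatives.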
